A study of Mus musculus with 6 samples.

Results

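The genes described here build the muscle side of the neuromuscular junction. They are 5 subunits of the nicotinic acetylcholine receptor of skeletal muscle (Chrna1, Chrnb1, Chrnd, Chrne and Chrng), 3 genes of the machinery that clusters the receptor (Musk, Rapsn and Dok7), and the synaptic acetylcholinesterase with its collagen tail (Ache and Colq). They were chosen by name, not by a threshold on measured values, though earlier results of these data were known. Every probe set that the platform annotation assigns to exactly 1 gene, that gene being among these 10, was taken: 13 probe sets of the 45037 non-control probe sets on the array. The arrays compared whole quadriceps of male C57/BL6 mice at 8 weeks of age. The 3 wild-type mice carried no transgene per the labels, and the 3 transgenic mice carried ERRγ, an orphan nuclear receptor, under a skeletal actin promoter (hSkeletal Actin in the labels), which drives expression in the muscle fibres themselves. Each array held the RNA of 1 biological replicate of its genotype. The number of transgenic founder lines is not given in the sources used here.

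At the junction, the nerve terminal releases acetylcholine onto a patch of muscle membrane packed with receptors. The fetal receptor combines α, β, δ and γ subunits, and around birth the ε subunit takes the place of γ. Agrin from the nerve acts through LRP4 and the receptor tyrosine kinase MuSK, helped by the adaptor Dok-7, and rapsyn then anchors the receptors, while acetylcholinesterase held in the basal lamina by ColQ ends the signal. In innervated adult muscle, transcription of the receptor subunits is concentrated in the few nuclei under the synapse and is kept low elsewhere along the fibre by electrical activity. Denervation raises the α, δ and γ subunit genes outside the synapse, largely through myogenin and related factors that bind E-boxes in their promoters. At synaptic nuclei, ETS factors acting at an N-box contribute to transcription, above all of the ε subunit gene. In whole-muscle RNA such as this, fewer cells of a type and less RNA per cell cannot be told apart, and neither can synaptic and extrasynaptic transcripts.

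Promoter sequences are given as background to the receptor genes, and their part in the differences below was not tested. RefSeq promoters on GRCm38.p6, each with 250 bases before and 50 bases after the annotated start, were matched for 7 of the 10 genes (8 windows, since Dok7 has more than 1 listed start). The windows of the α, β and ε subunit genes are printed 5′ to 3′ on the gene's own strand, with E-boxes (CANNTG) and the N-box (CCGGAA) in capitals. They were chosen as the subunit that rose in the transgenic muscle and 2 that did not pass the test.
Chrna1, chr2:73580289-73580588, minus strand: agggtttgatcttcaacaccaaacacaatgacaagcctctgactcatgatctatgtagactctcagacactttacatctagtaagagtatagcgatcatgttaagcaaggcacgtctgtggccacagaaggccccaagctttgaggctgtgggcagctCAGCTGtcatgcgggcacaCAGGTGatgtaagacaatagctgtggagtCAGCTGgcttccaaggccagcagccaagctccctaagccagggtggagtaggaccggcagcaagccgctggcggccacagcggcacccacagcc
Chrnb1, chr11:69795888-69796187, minus strand: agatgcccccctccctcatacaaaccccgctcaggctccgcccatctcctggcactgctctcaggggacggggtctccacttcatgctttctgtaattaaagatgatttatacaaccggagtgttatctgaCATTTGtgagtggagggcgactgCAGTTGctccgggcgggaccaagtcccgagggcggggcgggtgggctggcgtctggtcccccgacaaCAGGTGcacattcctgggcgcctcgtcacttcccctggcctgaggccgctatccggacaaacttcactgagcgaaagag
Chrne, chr11:70619145-70619444, minus strand: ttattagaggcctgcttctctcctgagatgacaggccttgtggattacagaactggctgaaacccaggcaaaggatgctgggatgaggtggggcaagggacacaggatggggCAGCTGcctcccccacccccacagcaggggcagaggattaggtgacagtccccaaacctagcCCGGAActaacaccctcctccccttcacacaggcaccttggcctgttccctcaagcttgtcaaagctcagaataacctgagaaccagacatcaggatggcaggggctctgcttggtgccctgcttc
The Chrna1 window held 3 E-boxes, whose first bases lay 92, 73 and 44 bases upstream of the start. The Chrnb1 window held 3 as well, at 119, 96 and 29 bases upstream. Chrne had 1 E-box at 138 bases and an N-box at 76 bases upstream. Of the windows not printed, those of Chrng and Musk held 3 E-boxes each, Ache held 1, and 1 of the 2 Dok7 windows held 1. In all, 7 of 8 windows held an E-box, against 72.3% of all 32851 promoters in the table, and 4 of them held at least 3, against 17.6%. The N-box was in the Chrne window only, against 14.9% of all promoters. The response element of the ERR family was searched as AAGGTCA and as TCAAGGTCA, the second containing the first, on both strands. Neither was found in any of the 8 windows, and they occur in 4.72% and 0.423% of all promoters. A match is a description of letters in a short window, not of binding.

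Values are MAS5 signals in arbitrary units as deposited, and all differences are transgenic minus wild-type on the log2(signal + 16) scale, which understates the change of dim probe sets. Dim probe sets, with a mean signal at or under 37.8 (the 40th percentile on the array), were left out. The other 26995 were tested with limma, and a difference passed at a Benjamini-Hochberg adjusted p under 0.05 over all of them. The p-values set each difference against the spread between these 6 muscles. The variance of each probe set was moderated by that of all tested probe sets, and the small number of arrays limits the precision. The brightest probe set of Esrrg, the gene of the transgene, read 71.6, 61 and 24.1 without the transgene and 14427.2, 13807.7 and 12697 with it. That is a difference of 7.72 (SE 0.24, limma adjusted p = 1.71e-07). The other tested Esrrg probe sets, at 0.40 (adjusted p = 0.284) and 0.35 (adjusted p = 0.443), did not pass. Each array had been scaled to the same trimmed mean. Its median signal was 52.1 to 56.1 in wild-type and 57 to 61.8 in transgenic muscle. Arrays of the same genotype had Spearman correlations of 0.935 to 0.955, and arrays of different genotypes 0.906 to 0.930. Muscle fibre markers lay above the 99.9th percentile of signal.

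Chrna1, the α subunit that carries the principal part of each acetylcholine binding site, was the only receptor gene of the set to rise past the test. Its signals were 199.2, 208.8 and 201.8 in the wild-type mice and 454.9, 442.5 and 633.5 in the transgenic mice. Every transgenic muscle lay above every wild-type muscle, with transgenic replicate 3 the highest. The mean signal went from 203.3 ± 4.97 (SD, n = 3) to 510.3 ± 106.9 (SD, n = 3), a ratio of 2.51. On the log2 scale the difference was 1.24 (SE 0.15, 95% interval 0.91 to 1.58, limma adjusted p = 0.00066), and without transgenic replicate 3 it was 1.08 (adjusted p = 0.00266). It passed under all 19 alternative settings, with differences from 1.08 to 1.33.

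Chrnd, the δ subunit, and Chrng, the fetal γ subunit, are neighbours among the RefSeq protein-coding genes of chromosome 1, and both were dim. The Chrnd probe set read 3.4, 3.3 and 7.9 in wild-type against 21.7, 34.7 and 35.8 in transgenic muscle. The genotypes did not overlap, but the mean over the 6 arrays was only at the 21.4th percentile of signal, so Chrnd was not among the probe sets tested. Fitted without the filter, it differed by 1.16 (SE 0.26, limma adjusted p = 0.0345). That call was lost in most alternatives. Leaving out any array other than transgenic replicate 1 gave adjusted p of 0.0558 to 0.145, and the added constant set the size, from 0.46 with 64 to 2.49 with 1. The brightest of the 3 Chrng probe sets read 8.6, 27.2 and 15.2 in wild-type against 31.1, 45.6 and 37.8 in transgenic muscle. These groups did not overlap either, and the fit without the filter gave 0.75 (SE 0.32, adjusted p = 0.260), which did not pass. The other Chrng probe sets overlapped between genotypes, the next brightest at 2.9 to 9.5 in wild-type against 3.2 to 4.6 in transgenic muscle and the dimmest at 1.4 to 3.6 against 2.1 to 12.6. The 3 γ probe sets thus did not show the same difference. All 5 probe sets below the filter, these 4 and that of Colq, have little signal behind them.

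Chrne, the ε subunit of the adult receptor, was lower in every transgenic muscle than in any wild-type muscle but did not pass. Its signals were 145.4, 177.5 and 108.4 in wild-type against 99.7, 81.2 and 84.6 in transgenic muscle, means of 143.8 ± 34.6 and 88.5 ± 9.85 (SD, n = 3 each). The difference was -0.59 (SE 0.20, 95% interval -1.03 to -0.15, limma adjusted p = 0.0836). The wild-type mice spread more widely than the transgenic mice, and without wild-type replicate 3, the lowest of them, it was -0.76 (adjusted p = 0.0314). Scaling each array to a common median (-0.73, adjusted p = 0.0380) and weighting the arrays (-0.65, adjusted p = 0.0459) also brought it past the threshold.

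Chrnb1, the β subunit shared by fetal and adult receptors, read 315.1, 374.2 and 336 in wild-type against 328.8, 280.3 and 309.1 in transgenic muscle. The genotypes overlapped. They differed by -0.15 (SE 0.13, limma adjusted p = 0.513), and the 95% interval ran from -0.44 to 0.14, which excludes a rise of the size measured for Chrna1. Without wild-type replicate 2 it was -0.087 and without transgenic replicate 2 it was -0.092. It did not pass under any of 19 alternative settings.

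**Figure D1:**
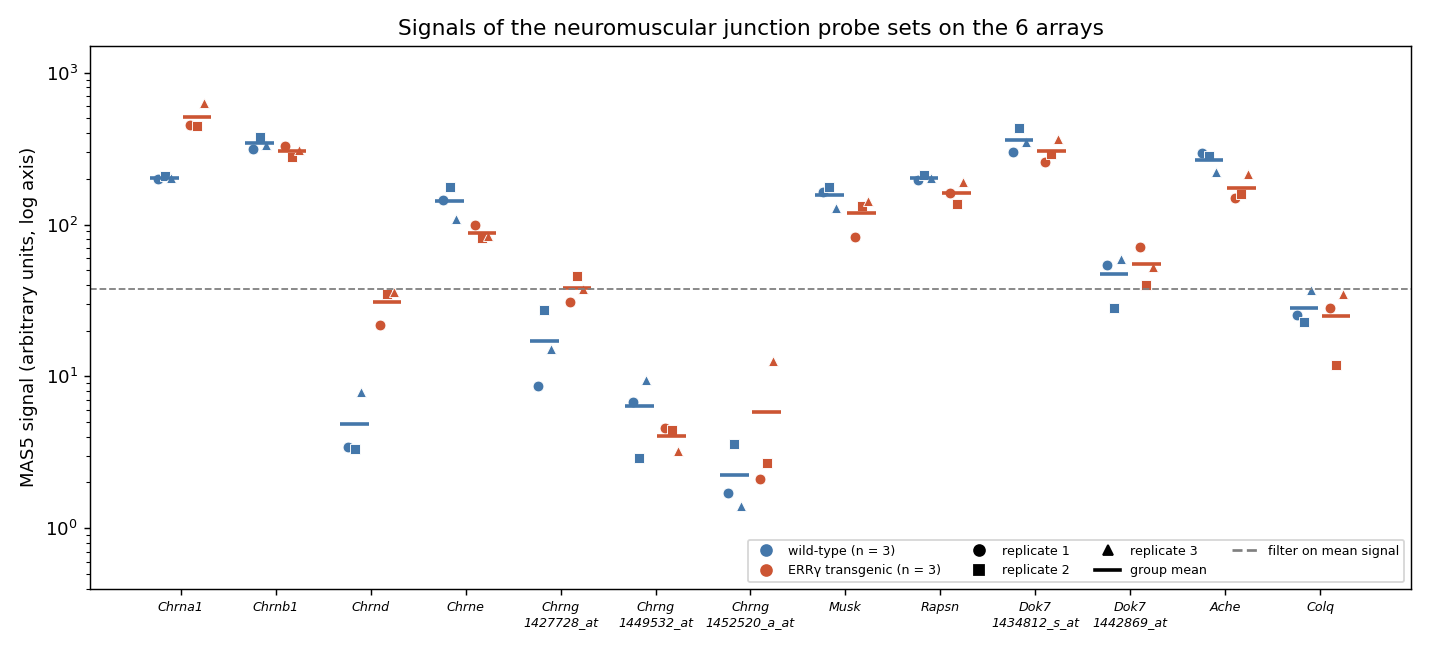
MAS5 signal (arbitrary units, log axis) of the 13 probe sets on each of the 6 arrays. Blue marks are wild-type and orange marks transgenic muscles, the marker shape gives the replicate, short lines are group means (n = 3), and the dashed line is the filter at 37.8. The transgenic marks lie wholly above the wild-type marks for Chrna1, Chrnd and the brightest Chrng probe set and wholly below them for Chrne, Rapsn and Ache.

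Among the clustering genes no difference passed. Musk, the kinase that receives the agrin signal, read 163.6, 177.7 and 127.9 in wild-type against 82.7, 132.7 and 142.8 in transgenic muscle. The genotypes overlapped, transgenic replicate 1 being the lowest, and the difference was -0.37 (SE 0.21, 95% interval -0.84 to 0.10, limma adjusted p = 0.312). Without that array it was -0.15. Rapsn, the scaffold beneath the receptors, read 196.7, 211.4 and 201.4 in wild-type against 160.3, 136.1 and 190.8 in transgenic muscle. All transgenic values were the lower ones, with replicate 3 close to the wild-type mice, and the difference of -0.31 (SE 0.16, 95% interval -0.65 to 0.04) had a limma adjusted p of 0.247. Without transgenic replicate 2, the lowest, it was -0.20.

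Dok7, the adaptor that activates MuSK from inside the fibre, has 2 probe sets. The brighter read 302.5, 431.5 and 347.9 in wild-type against 258.6, 291.3 and 367 in transgenic muscle. These overlapped and differed by -0.23 (SE 0.17, 95% interval -0.60 to 0.15, limma adjusted p = 0.442). Without wild-type replicate 2, the highest, the difference was -0.096, and without transgenic replicate 1, the lowest, it was -0.12. The dimmer read 54, 28.3 and 59.7 against 71.2, 40 and 52.4, which also overlapped, at 0.17 (SE 0.31, adjusted p = 0.777). The 2 estimates had opposite signs with intervals that included 0, and the sign of the dimmer one turned to -0.069 without wild-type replicate 2.

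Ache, the esterase that clears acetylcholine from the cleft, was lower in every transgenic muscle but lay just outside the threshold. Its signals were 297.5, 280.5 and 221 in wild-type against 149, 159.9 and 216.6 in transgenic muscle, means of 266.3 ± 40.2 and 175.2 ± 36.3 (SD, n = 3 each). The groups came close to meeting, since wild-type replicate 3 and transgenic replicate 3 were 221 and 216.6. The difference was -0.57 (SE 0.18, 95% interval -0.96 to -0.18, limma adjusted p = 0.0630). It passed in 7 of 19 alternative settings, among them those without wild-type replicate 3 (-0.69, adjusted p = 0.0332) or without transgenic replicate 3 (-0.72, adjusted p = 0.0361), and its range over all of them was -0.84 to -0.47. Colq, the collagen tail that anchors the esterase, was below the filter at 25.2, 22.9 and 37 in wild-type against 28.1, 11.8 and 35 in transgenic muscle, which overlapped. Without the filter its difference was -0.15 (limma adjusted p = 0.873).

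**Figure D2:**
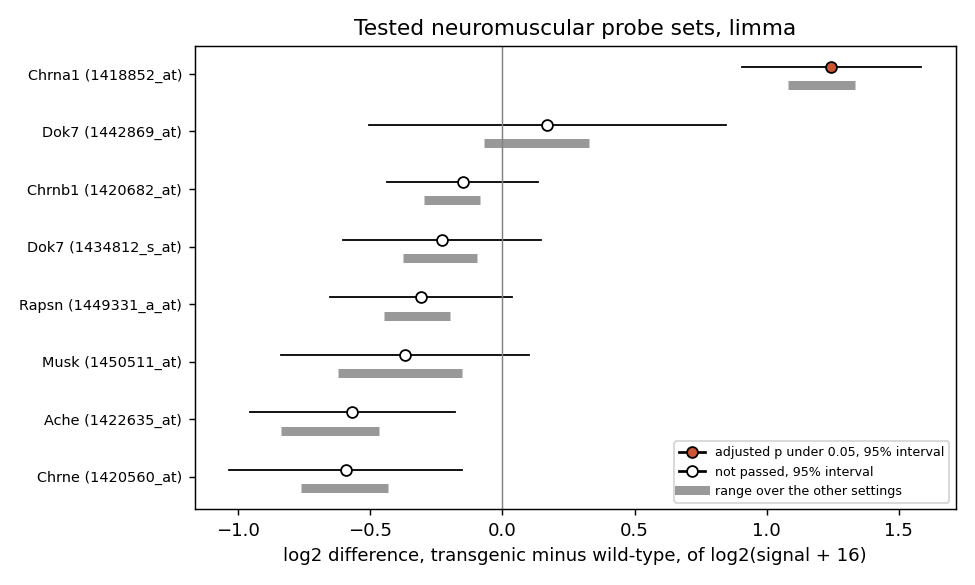
Difference between genotypes (transgenic minus wild-type, log2 of signal + 16) for the 8 tested probe sets, with the limma 95% interval as a black line and the range over the alternative settings as a grey bar. Only Chrna1, filled, had an adjusted p under 0.05, at 1.24, and the intervals of Chrne and Ache also lay below 0 before adjustment.

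With the brightest probe set taken for each gene, 7 of the 10 genes were tested and Chrnd, Chrng and Colq were not. By limma 1 rose, 0 fell and 6 did not pass, and at an unadjusted p under 0.05 there were 2 lower genes, Chrne and Ache, beside 12.4% of all genes tested that were lower by that rule. Over all 12529 genes tested, 7.65% rose and 5.75% fell, 13.4% in either direction, so 1 call among 7 genes is near the share over all genes. Of the 8 tested probe sets 1 rose and 0 fell, against 6.38% and 5.16% of all tested probe sets. The genotypes did not overlap for 1 tested gene on the higher side (Chrna1) and 3 on the lower side (Chrne, Rapsn and Ache), where the shares over all genes were 18.6% and 14.7%. Over all 13 probe sets, tested or not, 3 were wholly higher and 3 wholly lower, against 14.0% and 9.44% of all non-control probe sets. In the fit without the filter, in which Chrna1 and Chrnd passed, 2.82% of all non-control probe sets rose. Of the 7 tested genes 6 had negative differences, beside 5791 of all 12529 genes tested. The median difference of the 7 was -0.31, beside 0.03 for all genes tested. This median came out at -0.45 when each array was scaled to a common median, a scaling that moved the median of all genes to -0.11. It came out at -0.20 without transgenic replicate 1 and also without transgenic replicate 2.

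**Figure D3:**
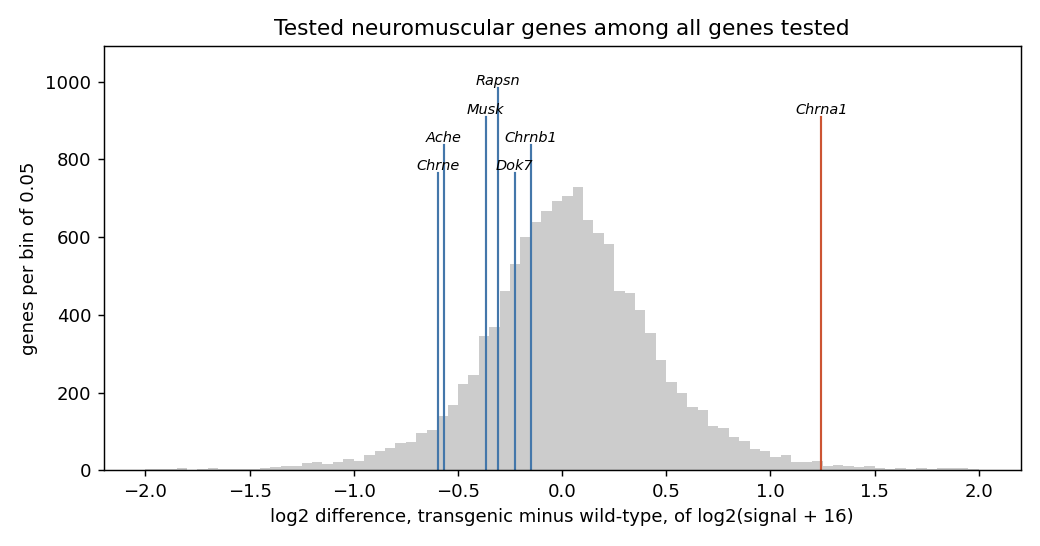
Histogram of the differences (transgenic minus wild-type, log2 of signal + 16) of the genes tested, 1 probe set a gene, in bins of 0.05; 56 genes beyond ±2 are not drawn. Vertical lines mark the 7 tested junction genes, orange for Chrna1, which passed, and blue for the 6 that did not, all of which lie below 0.

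The α subunit was also set against the other genes within each array, a ratio little touched by the scaling of an array. The log2 of Chrna1 minus that of the other gene was higher in all 3 transgenic than in all 3 wild-type muscles for each of 6 genes. The difference between genotypes was 1.40 for Chrnb1, 1.84 for Chrne, 1.61 for Musk, 1.55 for Rapsn, 1.47 for Dok7 and 1.81 for Ache. For Rapsn the wild-type spread of the ratio was an SD of 0.017 and the transgenic spread 0.12, and for Ache they were 0.21 and 0.068. Chrna1 was taken because it had passed, and the 6 ratios share its values. They therefore restate its difference relative to each gene and are given as a description, with no test.

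Other genes of the junction were taken as 3 lists of the agrin and MuSK pathway, of transcriptional control at synaptic nuclei, and of the postsynaptic scaffold and basal lamina. Of 35 listed genes 29 were tested, and 2 rose and 3 fell. The other 24 did not pass, and the median of all 29 was 0.01. Over all genes tested 7.65% rose and 5.75% fell, shares to be read beside this count and those of the lists below. In the agrin and MuSK list 10 of 11 genes were tested. Dnaja3, a cochaperone that binds the inner part of MuSK, rose from 1362 ± 76.2 to 1897 ± 164.2 (SD, n = 3 each), by 0.47 (SE 0.10, limma adjusted p = 0.0153), while its other tested probe set did not pass (0.16, adjusted p = 0.496). Crk, an adaptor recruited by phosphorylated Dok-7, fell from 1084 ± 25.2 to 785.5 ± 66.8, a difference of -0.46 (SE 0.11, adjusted p = 0.0189), and its 4 other tested probe sets did not pass. Both calls were lost with some single arrays left out, though the differences kept their sign. Dnaja3 was lost without wild-type replicate 2 (0.47) or transgenic replicate 2 (0.40), with adjusted p of at most 0.0592. Crk was lost without replicate 1 or 2 of either genotype, at -0.46 to -0.41 and with adjusted p of at most 0.0823.

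None of the 5 tested genes of the synaptic transcription list passed by limma, and 1 was higher at an unadjusted p under 0.05. That was Erbb3, a receptor for neuregulin, at 145.9 ± 14.5 in wild-type and 220.2 ± 38.3 in transgenic muscle (SD, n = 3 each), a difference of 0.54 (SE 0.16, limma adjusted p = 0.0585). Its partner Erbb2 had 69.6 ± 12.5 and 41.9 ± 34.1, groups that overlapped (-0.71, adjusted p = 0.275).

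In the scaffold and basal lamina list 14 of 17 genes were tested, of which 1 rose and 2 fell. Lama5, a laminin chain of the synaptic basal lamina and of vessel walls, rose from 168.0 ± 26.9 to 295.0 ± 24.9 (SD, n = 3 each), by 0.77 (SE 0.15, limma adjusted p = 0.00971). Dag1, dystroglycan, which links the basal lamina to the fibre's cytoskeleton along its whole length, fell from 3548 ± 334.2 to 2388 ± 121.8, a difference of -0.57 (SE 0.10, adjusted p = 0.00537). Syne1, the nuclear envelope protein nesprin-1 that holds nuclei in place under the synapse, fell from 565.7 ± 132.3 to 333.0 ± 68.5, a difference of -0.73 (SE 0.20, adjusted p = 0.0388). Wild-type replicate 3 was the lowest wild-type value for Syne1, at 413.2 against 633.1 and 650.7. The Syne1 call was lost without replicate 1 or 2 of either genotype (adjusted p of at most 0.144), and those of Lama5 and Dag1 held without each array in turn. With 2 arrays a genotype Lama5 did not pass (0.60, adjusted p = 0.0506). These values are of the brightest probe sets. Another Syne1 probe set also passed (-0.60, adjusted p = 0.0372), while another of Lama5 did not (0.69, adjusted p = 0.0700). Of the other Dag1 probe sets, those at -0.49 passed (adjusted p of at most 0.0189) and that at -0.38 did not (adjusted p = 0.0603).

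Genes whose level in muscle is known to follow denervation, some raised and some lowered by it, moved in both directions. Of 13 tested genes of 14 listed, 2 rose and 2 fell, where 7.65% and 5.75% of all genes tested did. The other 9 did not pass, and the list had a median of -0.07. Myh8, the perinatal myosin heavy chain, read 183.8, 201.7 and 112.9 in wild-type against 39.3, 25.8 and 46.8 in transgenic muscle, without overlap. It fell by 1.76 (SE 0.26, limma adjusted p = 0.00160). Trim63, the ubiquitin ligase MuRF1 that denervation raises, fell from 3239 ± 354.0 to 1864 ± 205.7 (SD, n = 3 each), a difference of -0.79 (SE 0.12, adjusted p = 0.00183). Dach2, a transcriptional regulator that denervation lowers, read 29.9, 36.2 and 25.1 in wild-type against 116.9, 70.8 and 179 in transgenic muscle, again without overlap. It rose by 1.50 (SE 0.30, adjusted p = 0.00953), and its second probe set by 1.31 (SE 0.29, adjusted p = 0.0146). Every wild-type array was below 37.8 for both Dach2 probe sets, so they entered the test through their transgenic signals, and Myh8 entered through its wild-type signals. Fitted without the filter, the adjusted p was 0.0295 for the brighter Dach2 probe set and 0.00663 for Myh8. Gadd45a, a stress gene that denervation raises, rose from 553.4 ± 119.5 to 940.3 ± 116.6, by 0.76 (SE 0.16, adjusted p = 0.0132). Leaving out single arrays kept the calls of Myh8, Trim63 and Dach2, and that of Gadd45a was lost without transgenic replicate 1 or 3 (adjusted p of at most 0.0581). Dach2 did not pass with 2 arrays a genotype.

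All 14 listed myogenic regulators, the E-box binding factors and their partners, were tested, and 1 rose and 1 fell. The other 12 did not pass, and the median was -0.09. Tcf4, an E protein that pairs with them, rose by 0.40 (SE 0.10, limma adjusted p = 0.0235), while its 5 other tested probe sets did not pass. Mef2c, a MADS-box cofactor of the myogenic factors, fell by 0.38 (SE 0.10, adjusted p = 0.0346) on its brightest probe set. Another Mef2c probe set passed at -0.60 (adjusted p = 0.0201), and the remaining ones did not pass. The Tcf4 call was lost without 4 of the 6 arrays, each left out in turn. That of the brightest Mef2c probe set was lost without 5 of the 6. Myog itself, the myogenin gene, differed by 0.05 (adjusted p = 0.903). Myod1 (-0.43, adjusted p = 0.0674), Myf6 (-0.40, adjusted p = 0.0558) and Myf5 (-0.52, adjusted p = 0.287) were lower in every transgenic than in any wild-type muscle but did not pass. These factors are named here after their values were seen. In this list 1 gene was wholly higher and 4 were wholly lower, where the shares over all genes tested were 18.6% and 14.7%. Myf5 entered the test through its wild-type signals, since its value on every transgenic array was below 37.8. At an unadjusted p under 0.05 the list had 3 higher and 3 lower genes, beside 1943 and 1548 of all 12529 genes tested.

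**Figure D4:**
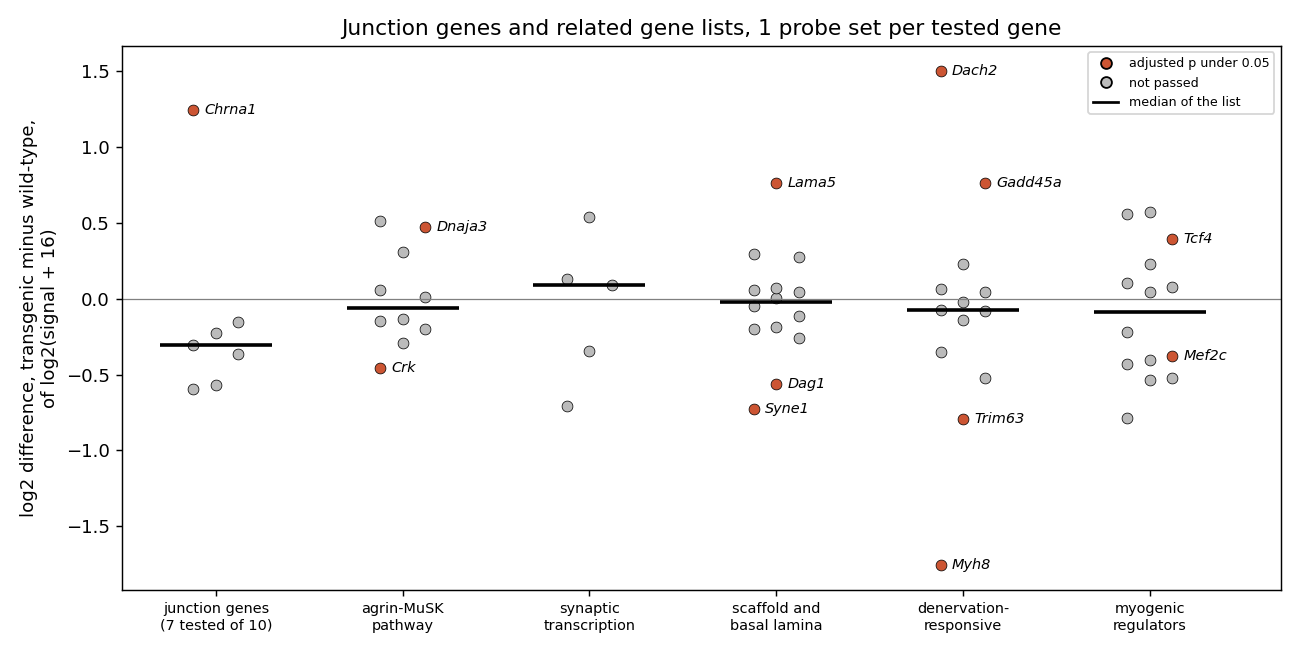
Differences (transgenic minus wild-type, log2 of signal + 16) of the 7 tested junction genes and of 5 related lists, 1 point per tested gene. Orange points had an adjusted p under 0.05 and carry the gene name, and black lines are list medians, which run from -0.31 for the junction genes to 0.09 for synaptic transcription.

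Of the subunits of other nicotinic receptors, 3 of 11 listed were tested, and 0 passed by limma, 0 also at an unadjusted p under 0.05. Chrnb2 and Chrnb4, subunits of neuronal receptors, had overlapping genotypes and differences of 0.43 (adjusted p = 0.373) and 0.45 (adjusted p = 0.432).

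Markers of the other cells in whole muscle were read beside these values. Of 12 axon markers 10 lay below the filter. The summed signal of all 12 was 261.9 to 360.2 in wild-type and 367.2 to 371.3 in transgenic muscle. These ranges did not overlap, though most of the 12 have little signal behind them. The tested axon markers, Stmn2 (-0.39, limma adjusted p = 0.601) and Syt1 (-0.06, adjusted p = 0.935), did not pass. Of 10 Schwann cell markers 7 were tested and 0 passed, 0 also at an unadjusted p under 0.05, with sums of 1619 to 1824 and 1630 to 2079. Sox10 was at 0.39 (adjusted p = 0.215) and Egr2 at -0.63 (adjusted p = 0.255). For satellite cells 5 of 6 markers were tested, 0 passed and 1 was lower at an unadjusted p under 0.05, with sums of 420.2 to 492 and 398.1 to 488.2. That marker was Pax7, at -0.79 (adjusted p = 0.171), and Myf5 was at -0.52 (adjusted p = 0.287). Pax7, Myf5 and Egr2 entered the test through their wild-type signals, since their transgenic means of 24.3, 30.3 and 29.1 lay below the filter.

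Some other marker groups held genes that passed. Of 6 endothelial markers 4 rose (Esam by 1.32, Pecam1 by 0.77, Cdh5 by 0.77 and Kdr by 0.75, limma adjusted p of at most 0.00882), and their sum went from 1811 to 1877 in wild-type to 3170 to 3438 in transgenic muscle. Of 9 slow-fibre markers 3 rose (Myl2 by 3.11, Tnnt1 by 2.48 and Casq2 by 2.10, adjusted p of at most 0.0187), with sums of 1867 to 1910 in wild-type against 2738, 3325 and 9341 in transgenic replicates 1 to 3. Tnnt1 read 4.5 to 19.6 in wild-type muscle and entered the test only through its transgenic signals (adjusted p = 0.0477 without the filter). Its call was lost with 2 arrays a genotype (adjusted p = 0.0607), and that of Myl2 with robust eBayes (adjusted p = 0.0630). Transgenic replicate 3 was highest both in slow-fibre signal and in Chrna1, and the part of slow-fibre signal in the Chrna1 result was not tested. Of 8 general fibre markers 1 rose (Myh1, by 0.67, adjusted p = 0.00129, on a probe set whose name marks possible cross-hybridization), with sums of 140308 to 177654 and 155800 to 178309. The other Myh1 probe sets also passed, at 0.72 (adjusted p = 0.00167) and 1.85 (adjusted p = 0.00350). Of 6 fibroblast markers 1 fell (Dpt, -0.48, adjusted p = 0.0454), and of 5 tested leukocyte markers 1 fell (Lyz2, -0.55, adjusted p = 0.0244). The Dpt call was lost without any array other than wild-type replicate 2, and the Lyz2 call without replicate 1 of either genotype, wild-type replicate 2 or transgenic replicate 3. Sums were 24868 to 28079 against 21746 to 23060 for fibroblasts and 1499 to 1894 against 1003 to 1409 for leukocytes. No adipocyte marker passed of 5 tested, 0 also at an unadjusted p under 0.05, with Cidec at -0.92 (adjusted p = 0.311) and Adipoq at -0.73 (adjusted p = 0.335). Wild-type replicate 3, the lowest wild-type value for both Chrne and Ache, had an adipocyte sum of 26420, against 11501 and 13854 in the other wild-type muscles and 12706 to 17366 in the transgenic muscles. The part of these markers in the differences of Chrna1, Chrne and Ache was not tested.

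The genes whose log2 signals followed Chrna1 most closely over the 6 arrays were Mat2b (Pearson r = 0.997), Clip4 (0.996), Smap2 (0.995), Fxyd6 (0.995) and Ints10 (0.993). With 6 arrays in 2 genotypes such values are common, and 258 genes had an r over 0.95. All 5 shared with Chrna1 higher values in every transgenic than in every wild-type muscle and the highest value in transgenic replicate 3. They were chosen for likeness to Chrna1 on these same arrays, so these shared traits and the differences below largely follow from that choice. Of all genes tested 18.6% were wholly higher in transgenic muscle. Their own differences were 1.30 for Fxyd6, a regulator of the sodium pump, 0.79 for Clip4, 0.75 for Smap2, 0.69 for Ints10 and 0.35 for Mat2b (limma adjusted p = 0.000945, 0.00145, 0.00800, 0.0136 and 0.0501).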

How the data were processed

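Total RNA from whole quadriceps (5 µg, Trizol) was made into biotin-labelled cRNA and hybridized to Affymetrix arrays, per the labels' protocols. The deposited intensity values are linear MAS5 signals, per the submitters' processing notes, and each array's trimmed mean (2% off each end) was 200. Of the 45037 non-control probe sets, 34945 had 1 gene in the platform annotation, 932 several and 9160 none listed. Groups came from the titles. From the deposited signals, log2(signal + 16) was computed and fitted on the tested probe sets with limma 3.58.1 (R 4.3.3; lmFit, eBayes with trend, two-sided), after checks on simulated data. A listed gene was represented by its brightest tested probe set. Named were all probe sets of the 10 genes, of each other list the 4 largest differences that passed or else the 2 smallest p, and the 5 patterns most like Chrna1. The genes and lists were chosen with earlier results of these data known. The alternatives changed the added constant, the filter, the scaling, the eBayes options, the weights of arrays, the replicate block or the arrays used. Same-numbered arrays deviated with correlations of 0.07, -0.08 and -0.02, so the numbers were not treated as pairs. No label names a hybridization batch.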

Additional observations from a re-analysis of the deposited data

How the results depend on the processing

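The direction of each tested probe set of the junction genes held under every alternative run, except the dimmer Dok7 probe set, which ranged from -0.069 (without wild-type replicate 2) to 0.32 with single arrays left out. The count of higher junction genes was 1 in every alternative but the fit without a filter, where it was 2 (Chrna1 and Chrnd) and where Syne1, Mef2c and Dpt were lost. The count of lower junction genes, 0 as reported, was 1 with a filter at the 60th percentile (Ache), 2 with arrays scaled to 1 median and 2 with array weights (Chrne and Ache), 1 with 2 arrays a genotype (Ache), and 0 to 2 with single arrays left out (2 without wild-type replicate 3, 1 without transgenic replicate 3). Scaling to the median of the tested probe sets, chosen after seeing the data, gave 1 (Ache). Common-median scaling moved the median of all genes from 0.03 to -0.11 and the share of higher probe sets among those called from 55.2% to 28.9%; scaling to the tested probe sets gave 43.3% and quantile normalization 51.3%. Dnaja3, Gadd45a and Tcf4 did not pass under common-median scaling, Tcf4 did not under scaling to the tested probe sets, and Dpt did not under quantile normalization. Without an intensity trend in the variance 951 probe sets rose and 633 fell, against 1721 and 1394, and the calls of Dnaja3, Crk, Syne1, Dag1, Gadd45a, Tcf4, Mef2c, Tnnt1, Dpt and Lyz2 were lost. With the replicate block, the number as a covariate, Chrna1 differed by 1.24 (limma adjusted p = 0.00130), the junction counts were 1 higher and 0 lower, and 1521 probe sets rose and 1223 fell, while Syne1 and Dpt did not pass. Low signal limits Chrnd, Chrng and Colq, whose arrays read below or near the filter. The further alternatives of the Chrnd and Chrng fits without the filter were chosen after seeing the data.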
